A study of Homo sapiens with 2 samples.

Results

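The genes described are the C/EBP transcription factors CEBPA, CEBPB, CEBPD, CEBPE and CEBPG and the Tribbles pseudokinases TRIB1 and TRIB2. They are 7 of the 50464 gene symbols in the table, and were chosen by name, with earlier results of these data known. Total RNA was sequenced from the KASUMI-1 line, which was derived from human acute myeloid leukaemia and carries the RUNX1-RUNX1T1 fusion. Cells had been infected with a lentivirus called pccl, which serves as the control below, or with one called USP6, after the deubiquitinase gene of that name, and 1 library was sequenced per group. Both groups are the same line in the same serum-containing medium, and the time after infection, the promoter of the construct and any selection of infected cells are not given in the sources used here. With 1 library per group no difference below has a replicate check, no test was run, and every interval covers counting error only. Below, "under pccl" and "under USP6" stand for those libraries.

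C/EBP proteins bind DNA as dimers through a basic region and a leucine zipper, and they drive the maturation of granulocytes and monocytes from myeloid progenitors. CEBPA is needed at the step from early progenitor to granulocyte and monocyte precursor and is often mutated or silenced in acute myeloid leukaemia. The RUNX1-RUNX1T1 fusion is known to lower its message. TRIB1 and TRIB2 are kinase-like scaffolds without normal kinase activity that bring the ubiquitin ligase COP1 to C/EBP alpha, so that the protein is degraded. The series title concerns the stabilisation of RUNX1 fusion proteins by USP6, and the comparison asks how these messages differed between the libraries.

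The libraries held 12306442 counts (pccl) and 12518795 counts (USP6), and all 7 genes had counts in both. USP6 itself had 8 counts under pccl and 70 under USP6, and whether reads of the construct were assigned to it was not tested. Of 10 markers of KASUMI-1 and myeloid blasts, 9 reached at least 1 FPKM (fragment counts scaled to gene length and to the library total), the level taken here as expressed. By at least 1 on the log2 scale, 2 of these were higher under USP6 (MPO and ANPEP) and 2 lower. The lower ones were CD34 (1932 and 653 counts) and KIT (8569 and 3512 counts). Of all expressed genes, 13.7% were higher and 11.4% lower by that rule. The mitochondrial genome took 49.9% of the counts under pccl and 45.6% under USP6. Of 12 markers of T and natural killer cells 5 were expressed, and GZMB and KLRD1 had no count. The level summed over all 12 was 39.1 FPKM under pccl and 49.2 under USP6. The sum is mostly CD3D (27.8 and 22.6 FPKM) and CD4 (9.57 and 16.7 FPKM), and the median log2 ratio of the 5 was 0.99. CD2 had 4 and 81 counts, TRAC 3 and 27, and CD3E 75 and 372. Of 8 B cell markers 3 were expressed, of which 2 were higher by at least 1 on the log2 scale. The level summed over all 8 was 4.09 and 14.4 FPKM, with no count for BLK. Of 11 erythroid and megakaryocyte markers 3 were expressed and 4 had no count. The 3 were higher under USP6, 0 of them by at least 1 on the log2 scale. GP1BB had 378 and 699 counts, EPOR 39 and 162 counts and ITGA2B 24 and 96 counts. After GC centring, set out further below, the log2 ratio was 0.47 for EPOR, 0.09 for ITGA2B and -0.16 for GP1BB. Of 12 stromal and epithelial markers 1 was expressed, and 6 had no count, among them CDH1 and COL1A2. The level summed over all 12 was 17.5 and 9.89 FPKM. The part of these markers in the differences below was not tested, and in bulk RNA a change in the share of cells cannot be told apart from a change in message per cell.

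The promoters of 4 C/EBP genes are shown because CEBPA, CEBPE and CEBPG were higher in the USP6 library, whereas CEBPB was level as deposited. Each window is the RefSeq stretch from 250 bases before to 50 bases after a transcription start (GRCh38.p14), written 5′ to 3′ on the strand of the gene. Capitals mark matches to the 7 motifs named after the sequences.
CEBPA (chr19:33302485-33302784, minus strand): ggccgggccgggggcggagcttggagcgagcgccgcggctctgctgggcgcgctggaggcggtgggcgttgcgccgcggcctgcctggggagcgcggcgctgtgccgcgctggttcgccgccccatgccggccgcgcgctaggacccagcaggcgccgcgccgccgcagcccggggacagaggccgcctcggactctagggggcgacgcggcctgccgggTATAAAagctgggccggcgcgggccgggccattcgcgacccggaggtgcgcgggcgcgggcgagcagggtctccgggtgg
CEBPB (chr20:50190580-50190879, plus strand): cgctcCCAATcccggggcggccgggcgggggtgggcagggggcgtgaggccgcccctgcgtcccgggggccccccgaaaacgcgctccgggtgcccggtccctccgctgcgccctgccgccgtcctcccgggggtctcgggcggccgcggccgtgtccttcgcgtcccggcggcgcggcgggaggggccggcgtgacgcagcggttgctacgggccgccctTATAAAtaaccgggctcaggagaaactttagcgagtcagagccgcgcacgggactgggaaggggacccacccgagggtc
CEBPE (chr14:23119206-23119505, minus strand): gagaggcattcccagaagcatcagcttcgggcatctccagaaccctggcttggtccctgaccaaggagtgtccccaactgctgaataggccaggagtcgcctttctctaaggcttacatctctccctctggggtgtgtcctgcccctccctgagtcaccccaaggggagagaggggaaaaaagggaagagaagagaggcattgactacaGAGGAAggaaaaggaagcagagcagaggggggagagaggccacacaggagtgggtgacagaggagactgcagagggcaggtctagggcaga
CEBPG (chr19:33373863-33374162, plus strand): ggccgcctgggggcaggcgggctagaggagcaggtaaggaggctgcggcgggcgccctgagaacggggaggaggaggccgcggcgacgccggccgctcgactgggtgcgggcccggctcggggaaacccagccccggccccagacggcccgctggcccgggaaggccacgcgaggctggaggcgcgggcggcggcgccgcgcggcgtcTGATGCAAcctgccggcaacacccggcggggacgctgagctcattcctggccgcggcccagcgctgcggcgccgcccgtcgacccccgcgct

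The motifs were searched on both strands in the windows of the 5 genes that had one (CEBPA, CEBPB, CEBPE, CEBPG and TRIB2). The CEBPG window holds TGATGCAA, a match to the composite site of a C/EBP and an ATF protein (TGATGNAA), beginning 42 bases before the start. This composite was in 3.62% of all 35116 promoter windows of the same length. The windows of CEBPA and CEBPB each hold a TATA box (TATAAA, in 11.5% of windows), beginning 30 and 29 bases before the start. That of CEBPB also holds CCAAT, and so does, on the other strand and at 2 places, the window of the other listed start of CEBPG (CCAAT was in 34.6% of windows). The CEBPE window holds the ETS-type purine box GAGGAA (in 27.9% of windows). The C/EBP core TTGCNNAA (10.5% of windows), the RUNX motif TGTGGT (13.1%) and the cyclic AMP response element TGACGTCA (1.85%) were not found in these windows. None of the 7 motifs was found in the TRIB2 window. The composite overlaps none of the other matches, and these are matches of letters only. The windows also differ in base composition. GC made up 80.7% of the CEBPA window, 76.7% of the CEBPB window shown and 79.7% of the CEBPG window shown, against 57.7% of the CEBPE window and a median of 58.7% over all windows.

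CEBPA, the factor that commits progenitors to the granulocyte and monocyte lineages, differed most of the 7 genes and was higher in the USP6 library. CEBPA (ENSG00000245848, chromosome 19 from 33299934 to 33302564, a gene of 1 exon) had 175 counts under pccl and 696 under USP6. Its level was 5.40 FPKM (95% Poisson interval 4.63 to 6.27) under pccl and 21.1 FPKM (19.6 to 22.8) under USP6. The ratio was 3.91 (exact conditional binomial interval 3.31 to 4.64), and the intervals of the levels do not overlap. Among 19665 protein-coding symbols, CEBPA stood at rank 2642 by FPKM under pccl and at rank 672 under USP6. The long and the short form of C/EBP alpha are translated from the same message, so counts per gene do not separate them.

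CEBPG was the most abundant member in both libraries and also higher in the USP6 library. It encodes a short C/EBP protein without an activation domain of its own that pairs with other C/EBP proteins and with ATF4. CEBPG (ENSG00000153879, chromosome 19 from 33373330 to 33382686) had 1209 and 2215 counts, or 22.3 FPKM (21.0 to 23.6) under pccl and 40.1 FPKM (38.5 to 41.8) under USP6. The ratio was 1.80 (1.68 to 1.93). CEBPE, which acts late in granulocyte maturation, was low in both libraries and also higher in the USP6 library. CEBPE (ENSG00000092067, chromosome 14 from 23117304 to 23119616) had 41 and 82 counts, or 2.14 FPKM (1.54 to 2.91) and 4.22 FPKM (3.35 to 5.23), a ratio of 1.97 (1.34 to 2.93). The level intervals of both genes were apart between the libraries, and the relative interval was widest for CEBPE, which had the fewest counts.

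CEBPB and CEBPD, the members linked to emergency granulopoiesis, macrophage genes and the acute phase response, were at nearly the same level in both libraries as deposited. CEBPB (ENSG00000172216, chromosome 20 from 50190734 to 50192689, 1 exon) had 318 and 330 counts, or 13.2 FPKM (11.8 to 14.7) and 13.5 FPKM (12.1 to 15.0). Its ratio was 1.02 with an interval of 0.872 to 1.19. CEBPD (ENSG00000221869, chromosome 8 from 47736909 to 47739086, 1 exon) had 432 and 430 counts, or 16.1 FPKM (14.6 to 17.7) and 15.8 FPKM (14.3 to 17.3). Its ratio was 0.978 (0.854 to 1.12). Counting error therefore allows differences up to about the ends of these intervals in either direction, and scaling changes the sign of both, as given below.

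TRIB2 was higher in the USP6 library, and TRIB1 was near the limit of expression in both libraries. TRIB2 (ENSG00000071575, chromosome 2 from 12716889 to 12742734) had 177 and 265 counts, or 2.57 FPKM (2.20 to 2.97) and 3.78 FPKM (3.34 to 4.26), a ratio of 1.47 (1.21 to 1.79). TRIB1 (ENSG00000173334, chromosome 8 from 125430321 to 125438405) had 119 and 107 counts, or 1.47 FPKM (1.22 to 1.76) and 1.30 FPKM (1.07 to 1.57). Its ratio was 0.884 with an interval of 0.674 to 1.16, which includes 1. The levels of TRIB2 were apart between the libraries, those of TRIB1 overlapped.

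**Figure D1:**
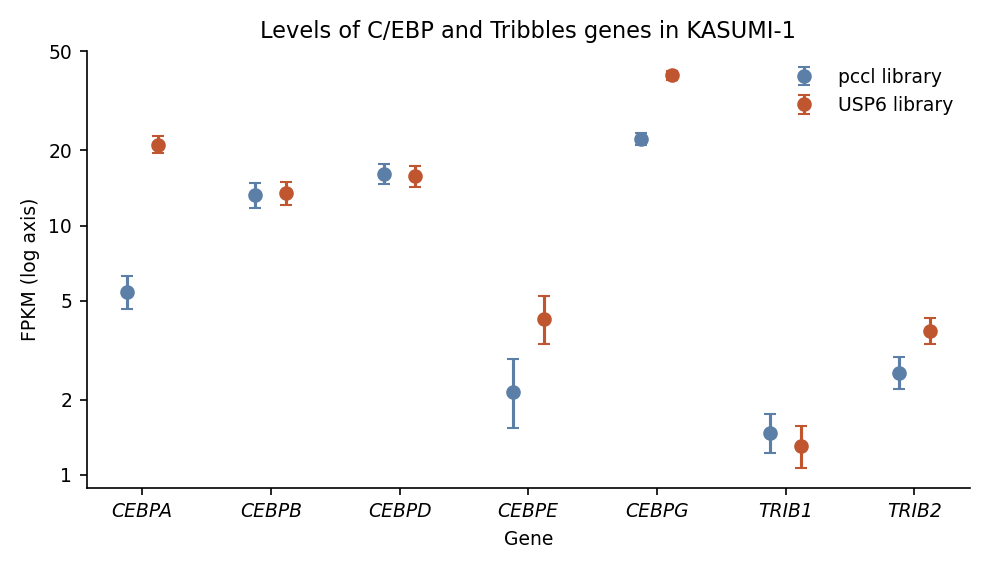
Level of each gene in FPKM (log axis) in the pccl library (blue) and the USP6 library (orange), 1 library per group, with bars for the 95% Poisson interval of the count. CEBPA goes from 5.40 to 21.1 FPKM and CEBPG from 22.3 to 40.1, while the intervals of CEBPB, CEBPD and TRIB1 overlap between the libraries.

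Set against the whole table, few of these differences were large. On the scale of log2((USP6 + 1)/(pccl + 1)) of FPKM, which understates the fold of low genes, 1 of the 7 genes (CEBPA, at 1.79) was higher by at least 1 and 0 were lower. Of the 10153 expressed genes, 13.7% were higher and 11.4% lower by that rule. At a limit of 0.58 (1.5-fold), 3 of 7 were higher (CEBPA, CEBPE at 0.73 and CEBPG at 0.82) and 0 lower, against 27.9% and 24.5% of expressed genes. The remaining values were 0.42 for TRIB2, 0.03 for CEBPB, -0.03 for CEBPD and -0.10 for TRIB1. The counting interval of the ratio lay above 1 for 4 of the 7 genes and below 1 for 0, against 42.1% and 38.5% of expressed genes. The median over the 7 genes was 0.42, beside 0.06 over all expressed genes. Of the genes that differed by at least 1 in either direction, 54.7% were higher as deposited and 65.3% when both libraries were scaled to the same FPKM sum. The share was 47.1% with the trimmed mean of M values, 45.9% with depth from nuclear genes and 47.8% with the median set to 0, so the larger side changes with the scaling. Scaling shifted all log2 ratios by 0.17 with the same FPKM sum, by -0.10 with the trimmed mean of M values and by -0.12 with depth from nuclear genes. CEBPA, CEBPE, CEBPG and TRIB2 stayed above 0 under each of these scalings, TRIB1 stayed below 0, and CEBPB and CEBPD changed sign among them.

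The order of the levels changed in 1 respect in which the level intervals were apart. In the pccl library the order was CEBPG, CEBPD, CEBPB, CEBPA, TRIB2, CEBPE and TRIB1. In the USP6 library it was CEBPG, CEBPA, CEBPD, CEBPB, CEBPE, TRIB2 and TRIB1. CEBPA was thus at the fourth place in one order and at the second in the other, and its level interval overlapped that of no neighbour in either order. The intervals of CEBPD and CEBPB overlapped in both libraries, as did those of TRIB2 and CEBPE. Such overlap does not settle whether their order exceeds counting error. Those of CEBPE and TRIB1 also overlapped in the pccl library.

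Ratios between members carry no scaling, since a factor common to a library cancels. The level of CEBPA over that of CEBPB was 0.409 under pccl and 1.57 under USP6, a 3.83-fold difference (exact conditional interval 3.04 to 4.84). Relative to CEBPD the difference was 3.996-fold (3.21 to 4.97), and relative to CEBPG it was 2.17-fold (1.81 to 2.61). The interval lay above 1 in all 6 pairs of CEBPA with another member. CEBPE and CEBPG kept their ratio within counting error, with a change of 1.09 (0.736 to 1.64), and so did CEBPB and CEBPD, with 1.04 (0.846 to 1.29). The ratio of CEBPG to TRIB2 changed by 1.22 (0.993 to 1.51) and that of CEBPE to TRIB2 by 1.34 (0.862 to 2.09), and both intervals include 1. CEBPA was 2.11 times the level of TRIB2 under pccl and 5.59 times under USP6, a 2.66-fold change (2.05 to 3.45). Relative to TRIB1 it went from 3.68 to 16.3 times (4.42-fold, 3.21 to 6.10). TRIB1 over TRIB2 changed by 0.601 (0.429 to 0.841), so the ratio of the Tribbles genes to each other differed between the libraries. In all, the interval excluded 1 in 15 of 21 pairs, without adjustment for their number. A trend with GC content, described below, does not cancel between genes of unlike composition. After GC centring the log2 ratio was 0.99 for CEBPA, 1.06 for CEBPG and 0.06 for CEBPE. CEBPA was then not higher relative to CEBPG, and CEBPE was lower relative to CEBPG. CEBPA stayed higher relative to CEBPB (-0.78) and CEBPD (-0.98).

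The summed C/EBP message was higher in the USP6 library, and its makeup differed. The 5 genes added up to 59.1 FPKM under pccl and 94.7 FPKM under USP6, a ratio of 1.60 (normal approximation on the log scale, 1.51 to 1.69). CEBPA made up 9.14% of that sum under pccl and 22.3% under USP6, and CEBPG 37.7% and 42.4%. The shares of CEBPB went from 22.3% to 14.2% and those of CEBPD from 27.2% to 16.7%, while their own levels in FPKM overlapped between the libraries. CEBPE was a small part, at 3.62% and 4.45%. CEBPG accounted for 50.2% and CEBPA for 44.2% of the difference in the sum. Without CEBPA the ratio of the sum was 1.37 and without CEBPG 1.48. The 2 Tribbles genes added up to 4.04 and 5.08 FPKM, a ratio of 1.26 (1.08 to 1.47).

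**Figure D2:**
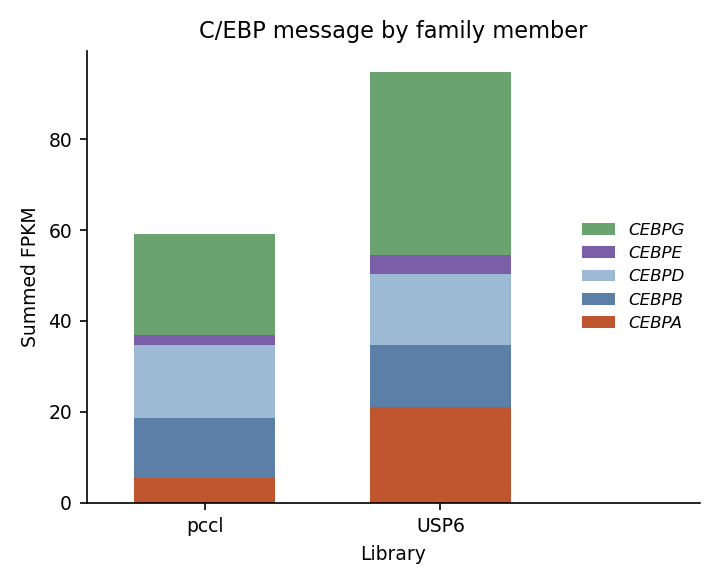
Summed FPKM of the 5 C/EBP genes in the pccl and the USP6 library, 1 library per group, with each gene as a segment. The sum is 59.1 and 94.7 FPKM, with the CEBPA and CEBPG segments larger and the CEBPB and CEBPD segments nearly the same.

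The differences followed GC content across the table, in which 4 of the 5 C/EBP genes lie in the richest class and CEBPG in a poorer one. Transcripts of CEBPA (65.9% GC), CEBPB (66.2%), CEBPD (70.0%) and CEBPE (62.9%) are rich in GC (longest transcript in GENCODE 29), whereas that of CEBPG has 43.9%, that of TRIB1 52.5% and that of TRIB2 50.8%. Over 10 classes of expressed protein-coding genes by GC content, the median log2 ratio was -0.48 for the poorest class and 0.72 for the richest. Beside the 1.79 of CEBPA, the 412 genes within 2 percentage points of its GC content had a median of 0.75 (quartiles 0.30 and 1.14). Such genes had a median of 0.76 around CEBPB (quartiles 0.33 and 1.15) and of 0.90 around CEBPD (0.54 and 1.37). CEBPB and CEBPD, level between the libraries, were thus below the lower quartile of genes of like composition. Around CEBPG the median was -0.35 (-0.79 and 0.16), so its 0.82 lay above the upper quartile. CEBPE, at 0.73, lay near the median of its class (0.64).

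Centring each value on the trend with GC content changed which member stood highest. The centred log2 ratio was 1.06 for CEBPG and 0.99 for CEBPA, so that CEBPG passed the limit of 1 and CEBPA fell just short of it. It was 0.06 for CEBPE, 0.37 for TRIB2 and -0.24 for TRIB1. CEBPB and CEBPD were at -0.78 and -0.98. By the limit of 1, 1 gene of 7 was higher and 0 lower after centring, where 9.68% and 9.85% of 10101 genes passed. By the limit of 0.58, 2 were higher (CEBPA and CEBPG) and 2 lower (CEBPB and CEBPD), where 22.1% and 22.5% passed. The genes CEBPA, CEBPB and CEBPD have 1 exon. The 82 expressed protein-coding genes of 1 exon with over 60% GC had a median of 0.86 (quartiles 0.25 and 1.25) before centring. Whether GC content takes part in the differences of these genes was not tested.

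**Figure D3:**
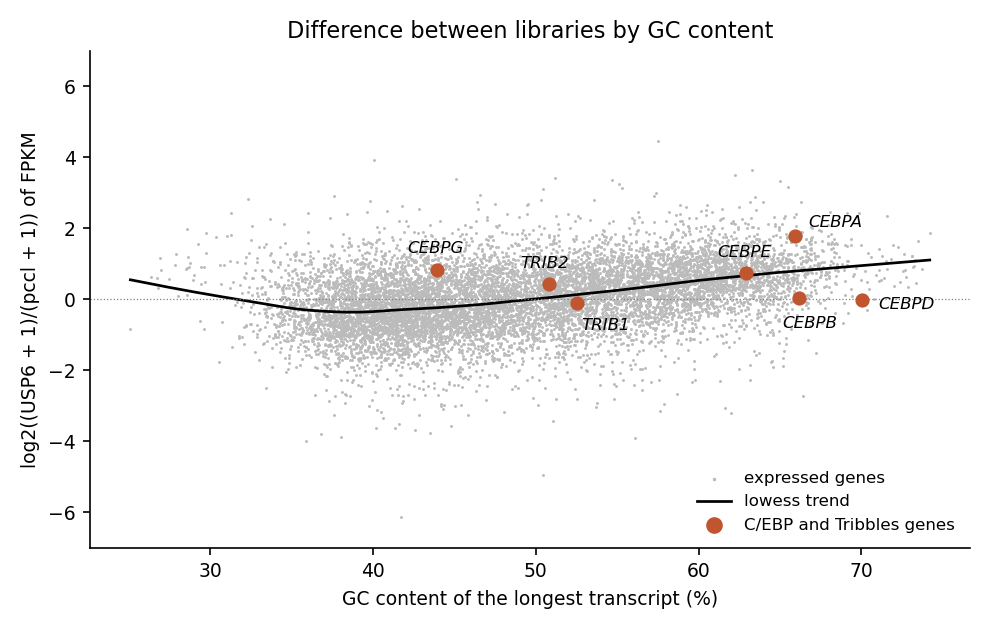
Log2 ratio of each expressed gene (grey) against the GC content of its longest transcript in percent, with the lowess trend (black line) and the 7 C/EBP and Tribbles genes (orange). CEBPA and CEBPG lie above the line, CEBPE close to it, and CEBPB and CEBPD below it.

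**Figure D4:**
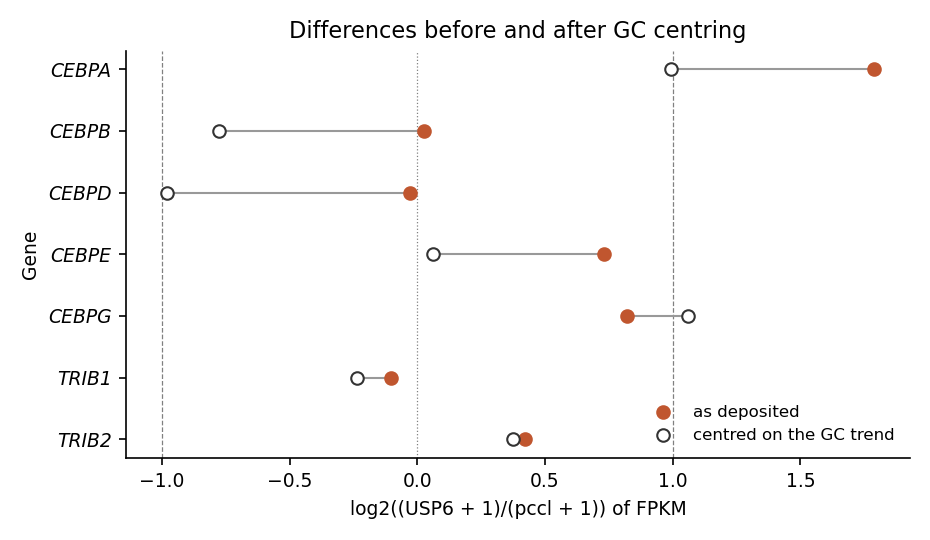
Log2 ratio of each gene as deposited (filled) and centred on the GC trend (open), with dashed lines at -1 and 1. CEBPA goes from 1.79 to 0.99 and CEBPG from 0.82 to 1.06, while CEBPB and CEBPD go from near 0 to -0.78 and -0.98.

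CEBPA and CEBPG are next to each other among protein-coding genes on chromosome 19, on opposite strands and 70.8 kb apart, and both were higher in the USP6 library. PEPD, a peptidase gene 4.3 kb beyond CEBPG, had 110 and 62 counts, 1.80-fold lower (1.31 to 2.51). CEBPA-DT, a noncoding RNA transcribed away from CEBPA, had 27 and 21 counts, a ratio of 0.765 (0.411 to 1.40). CEBPB overlaps its antisense gene CEBPB-AS1, which had 2 counts under pccl and 13 under USP6. Without stated strandedness reads of the overlap cannot be assigned to either, but they are few beside the 318 and 330 counts of CEBPB. TMEM189, the nearest protein-coding gene on the lower side of CEBPB, was 5.07-fold lower (3.86 to 6.76). SPIDR, which ends within 603 bases of CEBPD, had 48 and 11 counts, 4.44-fold lower (2.27 to 9.48). PRKDC, a DNA repair kinase gene on its other side, was 2.60-fold lower (2.39 to 2.82), while CEBPD itself was at 432 and 430 counts.

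Other relatives of the families, by name or by sequence, lay on both sides of 0. TRIB3, the Tribbles gene induced by ATF4, had 10.7 FPKM under pccl and 16.2 under USP6, a ratio of 1.51 (1.36 to 1.68), and a GC-centred log2 ratio of -0.02. It was thus more abundant than TRIB1 and TRIB2 in both libraries. DDIT3, a C/EBP-like protein that blocks its partners, had 3.03 and 7.67 FPKM, a ratio of 2.53 (2.17 to 2.97). STK40, a relative of the Tribbles kinases, was 3.74-fold lower (2.80 to 5.04). CEBPZ, which carries the name without belonging to the leucine zipper family, was 1.43-fold lower (1.31 to 1.56). It overlaps CEBPZOS, 1.55-fold lower (1.43 to 1.68), and reads may have been split between them.

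COP1, the ligase that Tribbles proteins recruit, was near level. It had 1.88 FPKM under pccl and 1.48 under USP6, 1.27-fold lower with an interval of 0.997 to 1.62. In the list of the Tribbles-COP1 pathway, 2 of 14 expressed genes were higher and 1 lower by at least 1, with a median of -0.20. For this list and those below, the shares over all expressed genes were 13.7% higher and 11.4% lower. The higher genes were USP7, a deubiquitinase, at a ratio of 3.51 (3.07 to 4.03), and MAP2K2, the MEK2 kinase gene, at 2.43 (2.24 to 2.63). The lower gene was SPOP, an adaptor of a ubiquitin ligase, 4.18-fold lower (3.28 to 5.38). After GC centring USP7 (1.57) stayed past the limit, while MAP2K2 (0.60) and SPOP (-0.84) were short of it. CUL4A, a cullin gene, passed it at 1.06, and the centred median was -0.29.

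Among dimer partners of C/EBP proteins, ATF4 was by far the most abundant. ATF4 had 298 FPKM under pccl and 797 under USP6, a ratio of 2.68 (2.63 to 2.73). Of 13 expressed partners, 3 were higher by at least 1 (ATF4, ATF5 and DDIT3) and 1 lower (BATF3, 3.54-fold), with a median of 0.19. ATF5, a relative of ATF4, had 28.8 and 75.5 FPKM, a ratio of 2.62 (2.48 to 2.77). JUN, a subunit of AP-1, was 2.06-fold lower (1.88 to 2.27), just short of the limit of 1 on the log2 scale. After GC centring ATF4 was at 1.08 and DDIT3 at 1.11, while ATF5 was at 0.83 and so under the limit. On the lower side JUN and JUNB were at -1.34 each and so past the limit, and BATF3 was at -0.97 and so short of it.

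Genes listed as targets of ATF4 and C/EBP gamma lay on both sides of 0, and the part of CEBPG or ATF4 in their levels was not tested. Of 24 expressed genes, 3 were higher and 4 lower by at least 1, with a median of -0.00. NUPR1, a stress-response gene, had 10 and 560 counts, and PPP1R15A, which restores translation after stress, was at a ratio of 3.16 (2.94 to 3.40). PSPH, an enzyme of serine synthesis, was 10.2-fold lower (6.89 to 15.6), and SLC7A11, the cystine transporter gene, 4.74-fold lower (3.84 to 5.90). After GC centring the median of the list was -0.39. The list holds ATF5 and TRIB3, described above, as well.

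Genes listed as regulators of C/EBP transcription lay on both sides of 0 as well. Of 21 expressed genes, 4 were higher and 4 lower by at least 1, with a median of -0.34. SPI1, which encodes the myeloid factor PU.1, had 94.0 and 230 FPKM, a ratio of 2.45 (2.37 to 2.54). The retinoid receptor gene RXRA was at 3.09 (2.64 to 3.61) and GATA2, a factor of stem and mast cells, at 2.44 (2.15 to 2.78). GFI1, a transcriptional repressor needed for neutrophil maturation that, like SPI1, is listed among C/EBP targets as well, had 894 counts under pccl and 4 under USP6. MYC was the other higher gene, with 22 and 160 counts. MYB was 3.29-fold lower (2.86 to 3.81), HIF1A 7.66-fold (5.28 to 11.5) and STAT5A 6.37-fold (4.65 to 8.89). RUNX1 was 1.69-fold lower (1.57 to 1.81). After GC centring SPI1 was at 0.52, RXRA at 0.61, GATA2 at 0.59 and MYC at 0.82, all under the limit. On the lower side GFI1 (-4.23) and STAT5A (-1.62) stayed past it, and LMO2 (-1.23) and RUNX3 (-1.17) passed it. HIF1A (-0.94) and MYB (-0.996) fell short. The centred median was -0.27. Among regulators of C/EBP translation and protein activity, 1 of 24 was higher and 5 lower, with a median of -0.44. The higher gene was the cyclin gene CCND3, at a ratio of 2.96 (2.57 to 3.41). CDK6, a cell cycle kinase, had 48.1 and 11.2 FPKM, 4.32-fold lower (4.10 to 4.54). The phosphatase gene PTPN11 was 3.24-fold lower (3.07 to 3.42) and the kinase gene EIF2AK2 4.27-fold lower (3.83 to 4.78).

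Target genes of C/EBP proteins in myeloid progenitors and primary granules did not share a direction, and the part of CEBPA or CEBPE in their levels was not tested. Of 15 expressed genes, 5 were higher and 5 lower by at least 1, against 13.7% and 11.4% of all expressed genes, with a median of -0.00. The higher genes were MPO, the myeloperoxidase gene (27.4 and 122 FPKM), ITGAM, CST3, SPI1 and ANPEP. The lower genes were GFI1, PRTN3, CTSG, AZU1 and RNASE3, of which PRTN3, a granule protease gene, had 115 and 16.6 FPKM. After GC centring SPI1 (0.52) and ANPEP (0.78) were under the limit. ELANE, with 44 and 19 counts, was at -1.59 and so passed it on the lower side. The other genes named as higher or lower stayed past it, and the centred median was -0.11. CSF3R, the receptor gene for granulocyte colony-stimulating factor and a direct C/EBP alpha target, was level, with 1.33 FPKM in both libraries (ratio 0.997, 0.841 to 1.18). Genes that C/EBP epsilon switches on in late granulocytes were not expressed. Of 20 such genes 0 reached 1 FPKM, and 14 had no count in either library, among them LCN2, CAMP, MMP8, MMP9 and S100A8. A count of 0 was read as up to 3 counts per library. The counts of the list added up to 53 under pccl and 14 under USP6. CYBB, a subunit of the phagocyte oxidase, had 38 and 5 counts, 7.73-fold lower (3.04 to 25.2), and OLFM4 had 11 and 0. LTF had 0 and 4 counts and CHI3L1 0 and 5. The lower ends of their ratio intervals were 0.649 and 0.901, so both include 1 and give no direction beyond counting error.

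**Figure D5:**
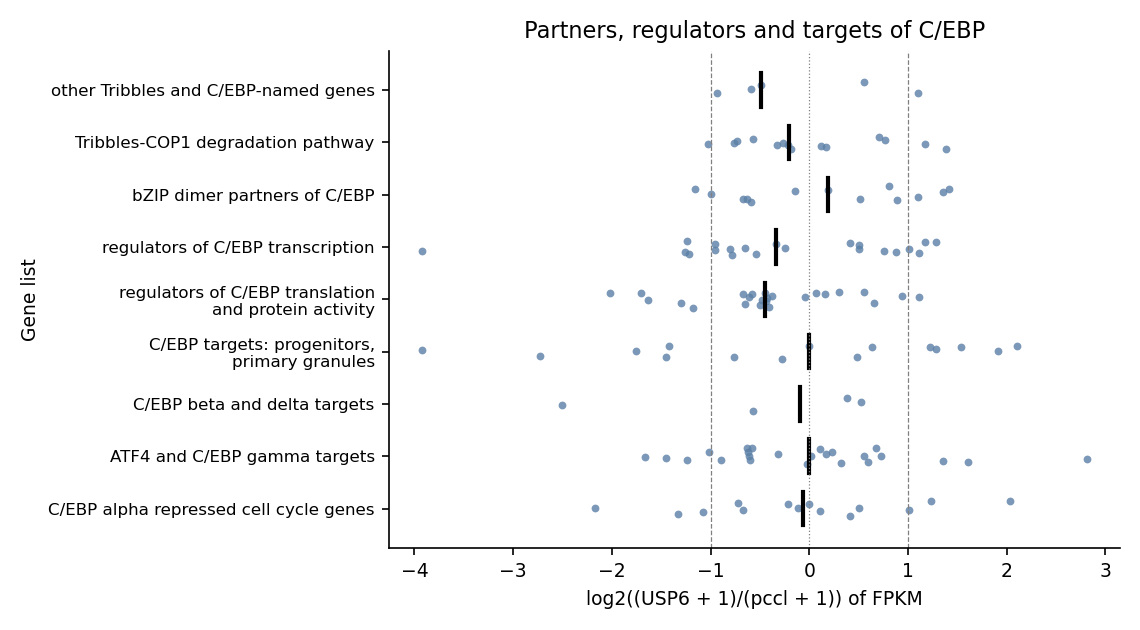
Log2 ratio of each expressed gene (points) in 9 lists of partners, regulators and targets of C/EBP, with the median of each list (black bar) and dashed lines at -1 and 1. The medians lie between -0.49 and 0.19, and each list holds genes on both sides of 0. Medians closer to 0 than the scaling shifts given above (-0.12 to 0.17) change sign with the scaling.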

How the data were processed

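RNA was sequenced from KASUMI-1 cells with the pccl or the USP6 virus, 1 library per group, and the column names match the sample titles. HISAT2 2.0.4, StringTie 1.3.3b and edgeR are named in the submitters' processing notes without their roles. Genome build, annotation and strandedness are not given in the sources used here. Deposited counts are whole numbers per gene. The deposited FPKM values are named so per the file headers. On 15971 genes, dividing the count by the FPKM and the column total gave the same gene length in both libraries within 0.1%. The loci of all 7 genes are identical in GENCODE 29 (GRCh38), which supplied gene types, exons and GC content.

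Values of genes with 1 symbol were summed. The log2 ratio used a pseudocount of 1 FPKM, and expressed means at least 1 FPKM in the higher library. Counts were not tested because 1 library per group leaves 0 residual degrees of freedom. Intervals are at 95%, exact conditional binomial for ratios and exact Poisson for levels, and may be too narrow where PCR copies were counted. A count of 0 was read as up to 3 counts, a fixed floor and not the end of such an interval. GC centring used a lowess span of 0.3. The genes and the 15 lists were chosen with earlier results of these data known, and 1 marker is not reported here. Named were the 7 genes, relatives by name, neighbours, COP1 and label checks. Also named were up to 4 expressed genes per list with the largest log2 ratio and any at or past 1. JUN, JUNB, LMO2, RUNX3, CSF3R, ELANE and CUL4A were named after their values were seen. The same holds for the erythroid and T cell markers and the genes of the late granulocyte list. On simulated Poisson counts for the USP6 over pccl comparison (50464 genes), 100 of 100 genes set 4-fold higher and 100 of 100 set 4-fold lower were recovered, and 0.174% of 9207 unchanged expressed genes were counted. Such counts hold no variation between cultures. Recovery is not given by level, so it sets no rate for genes as low as CEBPE, TRIB1 and TRIB2, whose fold the pseudocount understates. Software was statsmodels 0.14.6 (lowess), edgeR 4.0.16 in R 4.3.3 (trimmed mean of M values only), SciPy 1.17.1, pandas 2.3.3, matplotlib 3.10.9 and NumPy 2.4.6 in Python 3.11.15. Alternatives were other pseudocounts, filters, scalings and limits, single identifiers, protein-coding genes alone and GC centring.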

Additional observations from a re-analysis of the deposited data

How the results depend on the processing

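No paired analysis was possible because each group holds 1 library, and no library could be left out. CEBPA stayed above 0 under all 13 alternatives, from 0.99 after GC centring to 1.95 with a pseudocount of 0.1, and at or past 1 under 12 of them. CEBPG ranged from 0.71 to 1.06, CEBPE from 0.06 to 0.94 and TRIB2 from 0.21 to 0.55, all above 0, and TRIB1 from -0.24 to -0.01. CEBPB ranged from -0.78 to 0.18 and CEBPD from -0.98 to 0.13, on both sides of 0. CEBPE, TRIB1 and TRIB2 have no value with a filter of 5 FPKM. The number of the 7 genes counted as higher was 3 in place of 1 with the 1.5-fold limit, and 0 were lower at either limit before centring. With GC centring and the 1.5-fold limit together, 2 were higher and 2 lower. After GC centring with the limit of 1 the 1 gene was CEBPG in place of CEBPA.

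Across the table, 1396 genes were higher and 1156 lower. These counts were 2295 and 1993 with a pseudocount of 0.1, 364 and 301 with a pseudocount of 5, 808 and 682 with a filter of 5 FPKM, and 2831 and 2489 with the 1.5-fold limit. The ratio of the summed C/EBP level was 1.37 without CEBPA, 1.77 without CEBPB, 1.83 without CEBPD, 1.48 without CEBPG and 1.70 from counts not divided by length. Limits, filters and pseudocounts change the number of genes by their construction, and the cause of the other shifts was not tested. The difference between libraries cannot be told apart from a difference between cultures or preparations.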

Other observations

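Cell cycle genes listed as repressed by C/EBP alpha lay on both sides of 0. Of 14 expressed genes, 3 were higher under USP6 and 3 lower, each by at least 1 as a log2 ratio, with a median of -0.06. CDT1, a licensing factor of DNA replication, had 15.7 FPKM under pccl and 67.7 under USP6, a ratio of 4.31 (3.97 to 4.67). MCM5, a subunit of the replicative helicase, was at 2.43 (2.30 to 2.57). MYC was low, with 22 and 160 counts. TYMS, the thymidylate synthase gene, was 6.66-fold lower (5.33 to 8.41), the cyclin gene CCNA2 2.97-fold lower (2.51 to 3.52) and RRM2, a subunit of ribonucleotide reductase, 5.06-fold lower (3.66 to 7.14). Genes of inflammation listed as targets of C/EBP beta and delta were mostly unexpressed, with 4 of 20 at 1 FPKM or more, 0 higher and 1 lower. The lower gene was the chemokine gene CXCL8, with 10.2 and 0.975 FPKM, while CCL5 had 23.6 and 31.1 FPKM.

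Over 2 libraries many genes share the pattern of a member. The protein-coding genes nearest to CEBPA in level were PPP1R10 (5.61 and 21.8 FPKM) and MRPL23 (5.44 and 19.2 FPKM), at distances of 0.06 and 0.13 in log2(FPKM + 1). Within a distance of 0.25 there were 13 genes for CEBPA, 23 for CEBPG, 62 for CEBPD, 80 for CEBPB, 162 for CEBPE, 204 for TRIB2 and 352 for TRIB1. The nearest to CEBPG was SOX12, with 22.8 and 40.2 FPKM.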
